A study of Mus musculus with 6 samples.

Results

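The genes described here are the transcription factor *Atf4* and 35 genes that its stress response is known for: partner factors, feedback genes, enzymes of serine, asparagine, proline and cysteine synthesis, amino acid transporters, tRNA synthetases and secreted factors. They were named from textbook knowledge of the pathway and not from their values in these libraries, although results of these data were already known when the set was proposed. Of the 36 genes, 35 were among the 20066 genes listed for the series. The exception was *Fgf21*, a hormone secreted under metabolic stress, which was not listed and is given no value.

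Neonatal cardiomyocytes from C57BL/6 mice at postnatal day 0 to 1 (P0-1) were kept as primary cultures and exposed for 96 h to the solvent dimethylsulfoxide (DMSO) or to 100 µM of a cell-permeable form of α-ketoglutarate (αKG), which the Krebs cycle makes and many dioxygenases need. Each group had 3 libraries. All animals had the same genetic background and no group carried a transgene or deletion. The question was which transcripts differ between αKG-treated and control cells. In the study's imaging methods, a sample of neonatal cells stands for a single isolation from the pooled hearts of several newborns. Neither the labels nor the sequencing methods say whether this also holds for the libraries, so p-values measure the spread between these libraries, which may be technical.

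More ATF4 is made when one of 4 kinases phosphorylates the translation initiation factor eIF2: HRI (*Eif2ak1*), PKR (*Eif2ak2*), PERK (*Eif2ak3*) or GCN2 (*Eif2ak4*), which sense heme or mitochondrial stress, double-stranded RNA, unfolded protein in the endoplasmic reticulum (ER) and amino acid shortage. Phosphorylated eIF2 slows translation of most mRNAs, while the open reading frames upstream in the *Atf4* mRNA let more ATF4 protein be made from it. ATF4 then pairs with C/EBP and other bZIP factors on composite C/EBP-ATF response elements and switches on genes for amino acid import, synthesis and tRNA charging. In heart muscle this program is known from mitochondrial disease, where *Gdf15*, *Fgf21* and the mitochondrial folate enzymes are used as its readouts. RNA levels cannot show how much ATF4 protein was made.

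Values are whole numbers that the authors obtained from read counts with 1 size factor for each library, called normalized counts below. They added up to 4069900 to 4168009 per library, and the depth estimated from the spacing of low values was 3726069 to 4427587 reads in genes. The library αKG 3 stood apart from its group. Across all genes its log2 values correlated at 0.977 to 0.98 with the DMSO libraries and at 0.962 and 0.963 with αKG 1 and αKG 2, which correlated at 0.978 with each other. The 36 genes are therefore given by library, and counts of called genes in each list with and without αKG 3. A gene was called when its limma p-value, adjusted by Benjamini-Hochberg over all 20066 genes, was under 0.05, and log2 fold changes are αKG over DMSO on the log2(value + 1) scale with their standard error (SE).

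Most of the 35 genes were higher in αKG 1 and αKG 2 and near the control level in αKG 3. Both αKG 1 and αKG 2 lay above every DMSO library in 30 of 35 genes (85.7%), against 30.4% of all genes. αKG 3 lay above every DMSO library in 7 of the 35, below every one in 11 and between them in 17, where 27.3% of all genes were above and 27.0% below. The median difference of the 35 genes from the DMSO mean, on the log2 scale, was 0.74 in αKG 1, 0.89 in αKG 2 and -0.0003 in αKG 3, against 0.12, -0.04 and -0.10 in DMSO 1 to 3. In 23 genes αKG 1 and αKG 2 exceeded all controls and αKG 3 did not (65.7%, against 16.7% of all genes). In 7 of these 23, namely *Cebpb*, *Chac1*, *Sesn2*, *Shmt2*, *Asns*, *Cth* and *Sars*, αKG 3 was below all 3 controls.

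With all 6 libraries, 3 of the 35 genes were called higher (*Psat1*, *Mthfd1l* and *Vldlr*) and 0 lower, where 2.83% of all genes were called higher and 0.952% lower. limma-voom on the estimated reads called 1 of them (*Vldlr*) higher and 0 lower, against 1.22% and 0.468% of all genes. With limma, the 3 calls were lost when any one of DMSO 1, DMSO 2, DMSO 3, αKG 1 and αKG 2 was left out. Without adjustment, 20 of the 35 had a limma p under 0.05 and were higher and 1 (*Wars*) was lower, against 15.7% and 12.4% of all genes. The median log2 fold change of the 35 was 0.54 and that of all genes 0.04. Without αKG 3 the same test called 30 of the 35 higher and *Wars* lower, at a background of 19.3% higher and 17.9% lower, and the median of the 35 was 0.87, against 0.06 for all genes. The 2 groups did not overlap in 7 genes that were higher in αKG (*Cebpg*, *Psat1*, *Mthfd1l*, *Slc7a11*, *Slc38a2*, *Gdf15* and *Vldlr*; 13.7% of all genes) and in 1 that was lower (*Wars*; 14.6% of all genes).

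**Figure D1:**
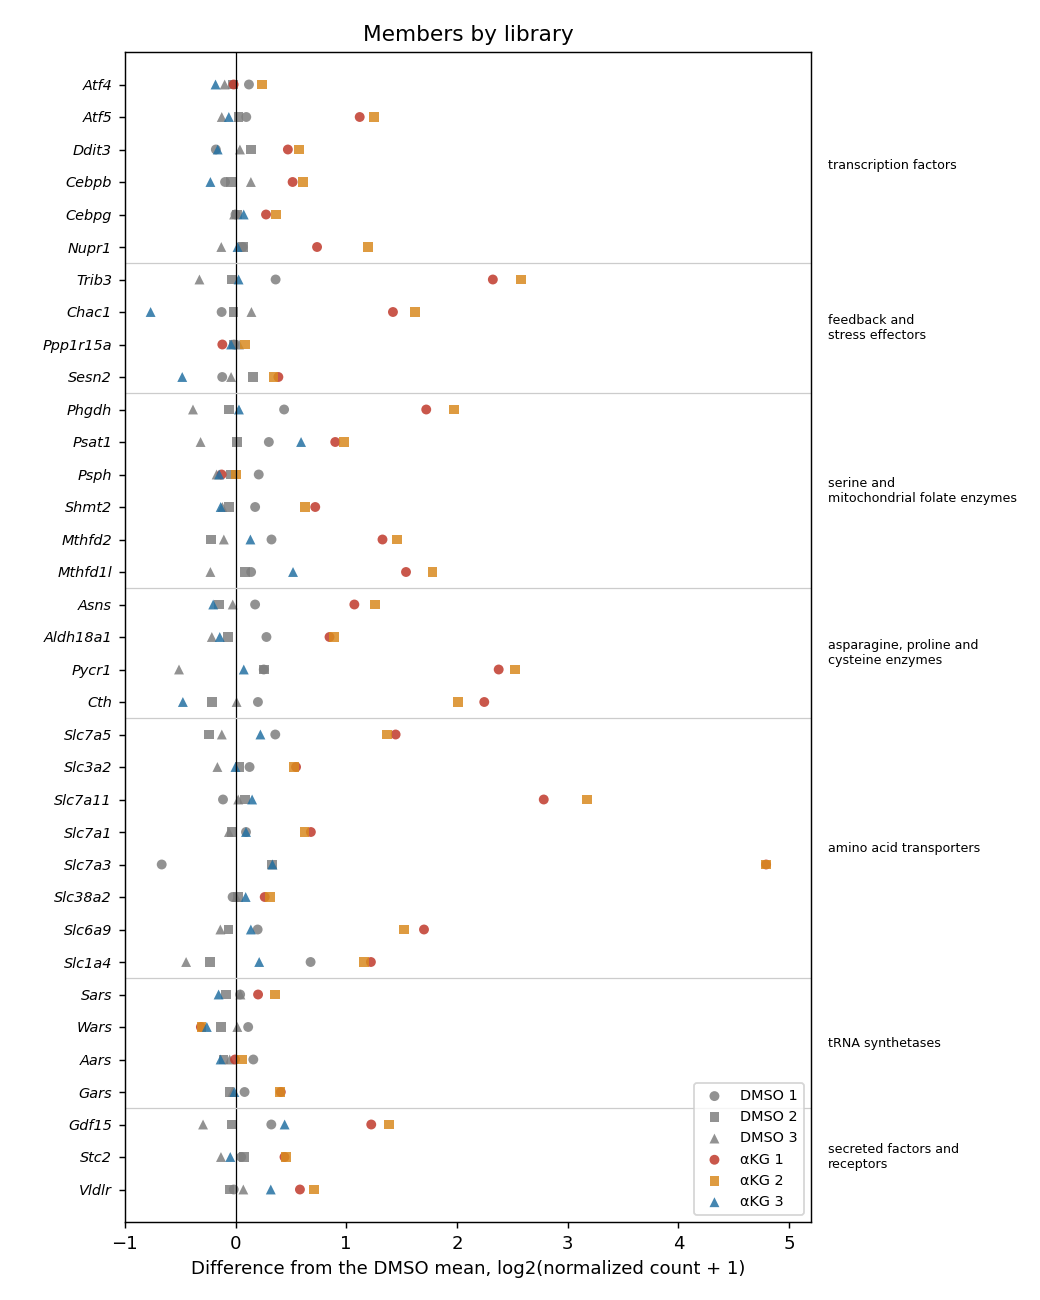
Difference of each library from the DMSO mean for the 35 listed genes, on the log2(normalized count + 1) scale (x axis), with the genes ordered by role (y axis). Grey points are the 3 DMSO libraries and coloured points the 3 αKG libraries. αKG 1 (red) and αKG 2 (orange) lie right of all grey points in 30 genes, while αKG 3 (blue) does so in 7.

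Composite C/EBP-ATF elements were looked for as letters in the promoters, taken from RefSeq (GRCm38.p6) as 250 bases before to 50 bases after each gene's start. Windows were found for 32 of the 36 genes; *Cth*, *Slc7a5*, *Slc7a3* and *Wars* were not matched. The element TGATGNAAN (both strands) occurred in 11 of these 32 genes (34.4%): *Nupr1*, *Trib3*, *Chac1*, *Asns*, *Pycr1*, *Slc7a11*, *Slc1a4*, *Aars*, *Gars*, *Fgf21* and *Vldlr*. It occurred in 4.5% of the 27025 genes with a window. The stricter form TGATGCAA, which overlaps it, was in 8 of 32 (25%) and in 1.03% of all, and the cAMP response element TGACGTCA was in 1 (*Ppp1r15a*), against 2.03% of all. Stretches of 30 bases are shown for 6 genes whose values are described below, 5′ to 3′ on the strand of the gene, with the element in capitals. In all 6, αKG 1 and αKG 2 lay above every control. *Aars*, which holds the element but lay within the controls in both, is not shown. A match in these letters is a description and not a measured binding site.
Chac1: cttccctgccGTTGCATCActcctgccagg
Pycr1: gccctgtgtaTGATGCAATgcacaaggctc
Slc7a11, first copy: ctcatgtggcTGATGCAAAcctggagaatt
Slc7a11, second copy: acctggagaaTTTGCATCAtcatgcagccc
Gars: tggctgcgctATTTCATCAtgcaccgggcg
Asns: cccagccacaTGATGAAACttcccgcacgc
Vldlr: agcagcaataGTTGCATCAgcgctcctagc
The first bases of the elements lie 194 bases before the RefSeq start in *Chac1* (chr2:119351038-119351067, plus strand), 103 in *Pycr1* (chr11:120643832-120643861, minus), 66 and 48 in *Slc7a11* (chr3:50443660-50443689 and chr3:50443642-50443671, minus), 31 in *Gars* (chr6:55037960-55037989, plus), 23 in *Asns* (chr6:7693213-7693242, minus) and 201 in *Vldlr* (chr19:27216809-27216838, plus). In GENCODE M21 the windows of *Chac1*, *Pycr1*, *Slc7a11* and *Gars* overlap no annotated gene, and those of *Asns* and *Vldlr* overlap an annotated exon of the same gene.

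Genes with and without the element both followed the libraries. Among the 10 listed genes with it, 9 were above all controls in αKG 1 and αKG 2 (90.0%), and their median difference from the DMSO mean was 1.15, 1.23 and 0.02 in αKG 1 to 3. Among the 21 with a window but no such letters, 18 were (85.7%), with medians of 0.55, 0.61 and -0.04. Outside the 36 genes, 306 listed genes held the element and 30.4% of them were above all controls in αKG 1 and αKG 2, against 27.3% of 11952 listed genes with a window and no element. For the 74 other listed genes with TGATGCAA the share was 40.5%, and 1 of them was called higher. Of these other genes, 2.94% were called higher with TGATGNAAN and 3.01% without it; leaving out αKG 3, these were 58 of 306 and 2046 of 11952.

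Among the transcription factors, the *Atf4* transcript itself (chromosome 15, 80255184-80257541, GRCm38) hardly differed. Its normalized counts were 481, 435 and 413 in DMSO 1 to 3 and 437, 521 and 390 in αKG 1 to 3, so that the groups overlapped (log2 fold change 0.01 ± 0.11, limma adjusted p = 0.953). *Atf5*, a bZIP factor that is translationally controlled like ATF4 and acts in the mitochondrial stress response, had 231, 220 and 198 in DMSO and 471, 515 and 207 in αKG. αKG 1 and αKG 2 were thus 2.18-fold and 2.38-fold above the DMSO mean, and αKG 3 was among the controls (0.77 ± 0.28, adjusted p = 0.122). *Nupr1*, a small stress-induced chromatin protein, had 31, 31 and 27 in DMSO and 50, 69 and 30 in αKG (0.65 ± 0.29, adjusted p = 0.183). *Ddit3*, which encodes the pro-apoptotic factor CHOP, had 85, 106 and 99 against 134, 144 and 86 (0.30 ± 0.20, adjusted p = 0.350). *Cebpb* and *Cebpg* encode dimer partners of ATF4. *Cebpb* had 56, 58 and 66 in DMSO and 86, 92 and 51 in αKG (0.30 ± 0.23, adjusted p = 0.412). *Cebpg* had 227, 229 and 225 against 275, 293 and 239, and was the only one of the 6 factors whose groups did not overlap (0.24 ± 0.10, adjusted p = 0.164). Other genes share 20.7% of the exon bases of *Cebpb* and 10.9% of those of *Ddit3*. None of the 6 factors was called (2 at an unadjusted p under 0.05 by limma, 0 called by limma-voom), and 5 were called higher without αKG 3, all but *Atf4*. Of all genes, 2.83% were called higher, 15.7% were higher at an unadjusted p under 0.05, and 19.3% were called higher without αKG 3.

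Of the 4 feedback and stress effectors, 3 exceeded every control in both αKG 1 and αKG 2 (30.4% of all genes did), and *Ppp1r15a* did not. *Trib3*, a pseudokinase that binds ATF4 and restrains it, had 28, 21 and 17 in DMSO and 112, 134 and 22 in αKG, or 5.09-fold and 6.09-fold above the DMSO mean in αKG 1 and αKG 2 (1.64 ± 0.57, adjusted p = 0.109). *Chac1*, which degrades glutathione, had 38, 41 and 46 in DMSO and 113, 130 and 24 in αKG. The αKG 3 value was the lowest of all 6 libraries, 0.576 of the DMSO mean, the lowest such ratio of the 35 genes (0.76 ± 0.52, adjusted p = 0.356). In contrast, *Ppp1r15a*, encoding the GADD34 subunit that dephosphorylates eIF2, stayed between 316 and 364 in all 6 libraries (-0.02 ± 0.09, adjusted p = 0.872). *Sesn2*, a leucine sensor of the mTORC1 pathway, had 139, 169 and 147 against 198, 192 and 108 (0.08 ± 0.22, adjusted p = 0.828). None of the 4 was called with 6 libraries (1 higher at an unadjusted p under 0.05 by limma, 0 called by limma-voom), and all but *Ppp1r15a* were called higher without αKG 3. The background over all genes was 2.83% called higher, 15.7% higher at an unadjusted p under 0.05, and 19.3% called higher without αKG 3.

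**Figure D2:**
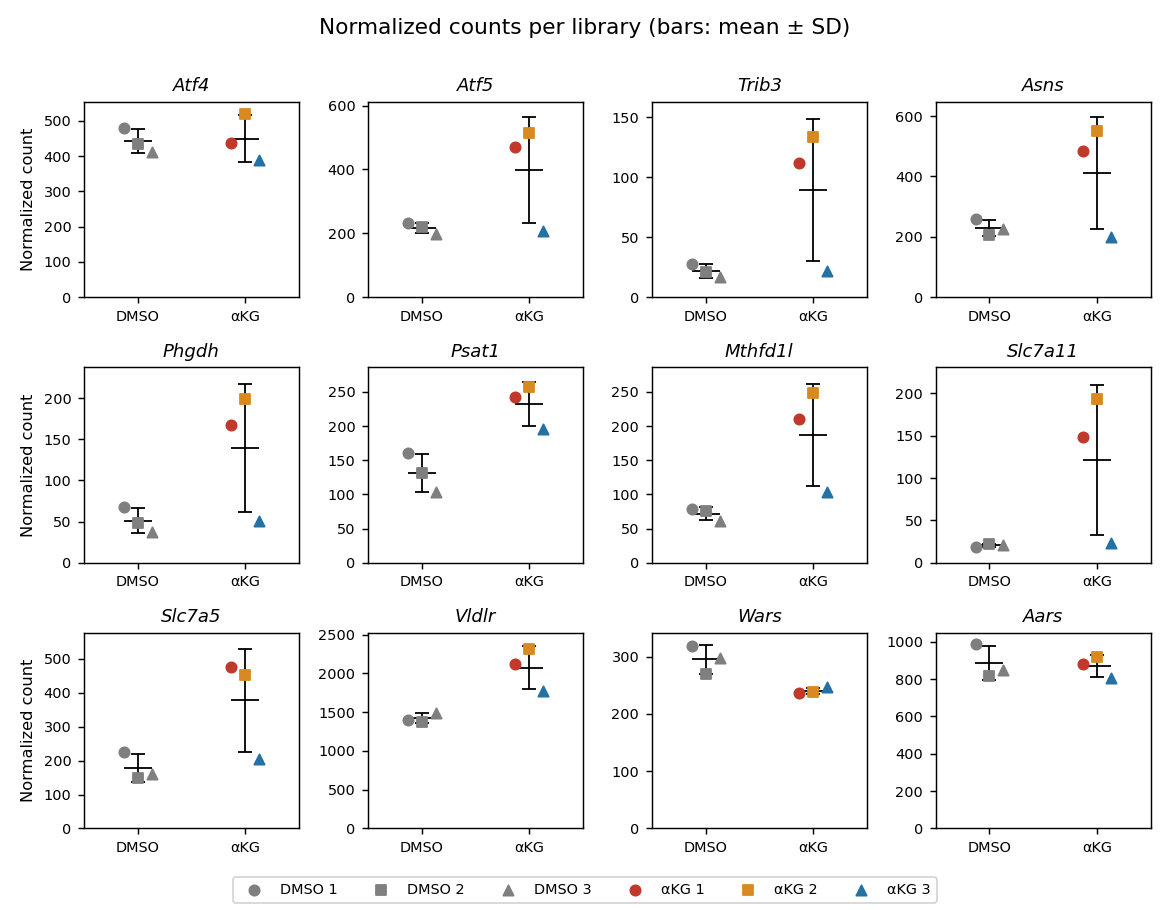
Normalized counts (y axes, from 0) of 12 of the genes in each DMSO and αKG library, with the mean and SD of each group of 3 as bars. In *Atf5*, *Trib3*, *Asns*, *Phgdh*, *Slc7a11* and *Slc7a5* αKG 3 lies at or near the control values, in *Psat1*, *Mthfd1l* and *Vldlr* all 3 αKG libraries lie above them, and *Atf4* and *Aars* overlap.

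Serine synthesis and the mitochondrial folate enzymes, 6 genes, held 2 of the 3 called genes, where 2.83% of all genes were called higher. *Psat1* (ENSMUSG00000024640, chromosome 19, 15904678-15947337), the aminotransferase of the serine pathway, had 160, 131 and 104 in DMSO and 243, 257 and 196 in αKG. All 3 αKG libraries were above all controls, and αKG 3, at 1.49-fold over the DMSO mean, stood higher for this gene than for any other of the 35 except *Slc7a3*, which had 1 count or fewer there and in the controls (132 ± 28 against 232 ± 32, SD, n = 3; log2 fold change 0.82 ± 0.17, limma adjusted p = 0.0377). *Mthfd1l* (ENSMUSG00000040675, chromosome 10, 3973118-4167081), which makes formate in mitochondria, had 79, 76 and 61 in DMSO and 210, 248 and 103 in αKG (72.0 ± 9.64 against 187 ± 75.2, SD, n = 3; 1.28 ± 0.28, adjusted p = 0.0445).

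The other enzymes of this group followed αKG 1 and αKG 2 alone. *Phgdh*, the first enzyme of serine synthesis, had 68, 48 and 38 in DMSO and 167, 199 and 51 in αKG (1.24 ± 0.44, adjusted p = 0.115). *Mthfd2*, the mitochondrial folate dehydrogenase, had 282, 193 and 209 against 566, 621 and 247 (0.97 ± 0.30, adjusted p = 0.087). *Shmt2*, which passes a carbon of serine to folate in mitochondria, had 231, 196 and 188 against 337, 316 and 186 (0.40 ± 0.20, adjusted p = 0.223). *Psph*, the last enzyme of serine synthesis, was the exception of the pathway: it had 81, 68 and 62 in DMSO and 64, 70 and 63 in αKG, all within the range of the controls (-0.09 ± 0.17, adjusted p = 0.747). Another gene shares 10.4% of the exon bases of *Psph*. DMSO 1 was the highest control in all 6 of these genes, and in 21 of the 35 (60.0%) against 30.2% of all genes. For *Phgdh*, *Shmt2* and *Mthfd2*, αKG 3 was below DMSO 1. Without αKG 3, 5 of the 6 genes were called higher, all but *Psph*, against 19.3% of all genes.

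Of the enzymes for asparagine, proline and cysteine, 0 of 4 were called with 6 libraries (2 higher at an unadjusted p under 0.05 by limma, 0 called by limma-voom) and 4 of 4 without αKG 3. The shares of all genes that were higher were 2.83% called, 15.7% at an unadjusted p under 0.05 and 19.3% called without αKG 3. *Asns*, asparagine synthetase, had 259, 206 and 225 in DMSO and 483, 549 and 199 in αKG (0.71 ± 0.31, adjusted p = 0.172). *Pycr1*, the mitochondrial reductase that completes proline, had 16, 16 and 9 against 73, 81 and 14, which is 5.34-fold and 5.93-fold over the DMSO mean in αKG 1 and αKG 2 (1.66 ± 0.58, adjusted p = 0.112). *Aldh18a1*, the first enzyme of proline synthesis, had 220, 173 and 156 against 327, 336 and 164 (0.53 ± 0.25, adjusted p = 0.20). In all 4 genes αKG 1 and αKG 2 lay above the controls and αKG 3 did not, against 16.7% of all genes. *Cth*, which makes cysteine from cystathionine, was low throughout, with 7, 5 and 6 in DMSO and 32, 27 and 4 in αKG (1.26 ± 0.65, adjusted p = 0.232).

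In all 8 amino acid transporters, αKG 1 and αKG 2 exceeded every control, against 30.4% of all genes. All 8 were higher at an unadjusted limma p under 0.05, against 15.7% of all genes. With 6 libraries, however, 0 were called by limma or limma-voom, where 2.83% and 1.22% of all genes were called higher. *Slc7a11*, the cystine importer xCT (chromosome 3, 49892526-50443614), had 19, 22 and 21 in DMSO and 148, 194 and 23 in αKG. αKG 1 was 7.16-fold and αKG 2 9.39-fold above the DMSO mean, while αKG 3 was above the highest control by a single count (2.04 ± 0.64, adjusted p = 0.0888). *Slc7a3*, a cationic amino acid transporter on chromosome X (101079210-101086020), was listed at 0, 1 and 1 in DMSO and at 43, 43 and 1 in αKG. Its estimated reads were 2 in the 3 DMSO libraries together and 40, 38 and 1 in αKG 1 to 3, so that the ratio to DMSO, per read sequenced, was 67.0 in αKG 1 (95% exact interval 17.4 to 572), 66.0 in αKG 2 (17.0 to 564) and 1.48 in αKG 3 (0.025 to 28.3). These intervals cover counting error only. The limma test gave *Slc7a3* an adjusted p of 0.0912.

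*Slc7a5* and *Slc3a2* encode both chains of the large neutral amino acid exchanger LAT1. *Slc7a5* had 224, 148 and 160 in DMSO and 477, 452 and 204 in αKG (1.01 ± 0.29, adjusted p = 0.0762), and *Slc3a2*, whose product also pairs with xCT, 295, 277 and 241 against 395, 389 and 270 (0.36 ± 0.15, adjusted p = 0.159). For both, αKG 3 lay among the controls. *Slc7a1*, the main arginine and lysine importer, had 532, 486 and 478 against 799, 768 and 532 (0.47 ± 0.14, adjusted p = 0.0830). *Slc38a2*, the sodium-coupled neutral transporter SNAT2, was the most abundant transporter, with 1491, 1538 and 1526 against 1823, 1886 and 1618. Its change was the smallest of the 8, but the groups did not overlap (0.22 ± 0.07, adjusted p = 0.0833). *Slc1a4*, which carries serine and alanine, had 108, 57 and 49 against 158, 151 and 78, and its DMSO 1 value exceeded αKG 3 (0.86 ± 0.33, adjusted p = 0.132). *Slc6a9*, a glycine transporter, had 23, 19 and 18 against 67, 59 and 22 (1.12 ± 0.39, adjusted p = 0.108). Other annotated genes cover 30.2% of the exon bases of *Slc6a9*, and nothing says that reads were counted by strand, which leaves its reads uncertain. All 8 transporters were called higher without αKG 3, against 19.3% of all genes.

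The 4 tRNA synthetases, which attach amino acids to their tRNAs, did not move as one. *Gars* (glycine) had 710, 646 and 658 in DMSO and 891, 888 and 666 in αKG (0.27 ± 0.11, adjusted p = 0.155), and *Sars* (serine) 554, 507 and 555 against 620, 688 and 484 (0.13 ± 0.12, adjusted p = 0.483). *Aars* (alanine), with 2 copies of the element in its promoter window, had 987, 819 and 851 against 880, 920 and 804, so that the groups overlapped (-0.03 ± 0.09, adjusted p = 0.863; 15.1% of its exon bases are shared with other genes). *Wars* (tryptophan) went the other way. It had 319, 269 and 298 in DMSO and 237, 238 and 246 in αKG, and was the only one of the 35 genes with all 3 αKG libraries below all controls (-0.29 ± 0.10, adjusted p = 0.0970). None was called with 6 libraries (1 higher and 1 lower at an unadjusted p under 0.05 by limma, 0 called by limma-voom). Of all genes, 2.83% were called higher and 0.952% lower, and 15.7% and 12.4% were so at an unadjusted p under 0.05. Without αKG 3, *Gars* and *Sars* were called higher and *Wars* lower, against 19.3% and 17.9% of all genes.

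Among secreted factors and receptors, *Vldlr* (ENSMUSG00000024924, chromosome 19, 27216484-27254231), a lipoprotein receptor whose transcription ATF4 activates under stress, was called higher. It had 1405, 1368 and 1492 in DMSO and 2127, 2320 and 1772 in αKG, so that even αKG 3 was above every control (1422 ± 63.7 against 2073 ± 278, SD, n = 3; 0.54 ± 0.09, limma adjusted p = 0.0260). *Gdf15*, a hormone of the TGF-β family released by stressed tissue, had 22, 17 and 14 in DMSO and 42, 47 and 24 in αKG; the groups did not overlap (1.02 ± 0.32, adjusted p = 0.0867). *Stc2*, a secreted glycoprotein, had 150, 153 and 132 against 197, 199 and 140 (0.28 ± 0.15, adjusted p = 0.252). All 3 were called higher without αKG 3, against 19.3% of all genes.

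**Figure D3:**
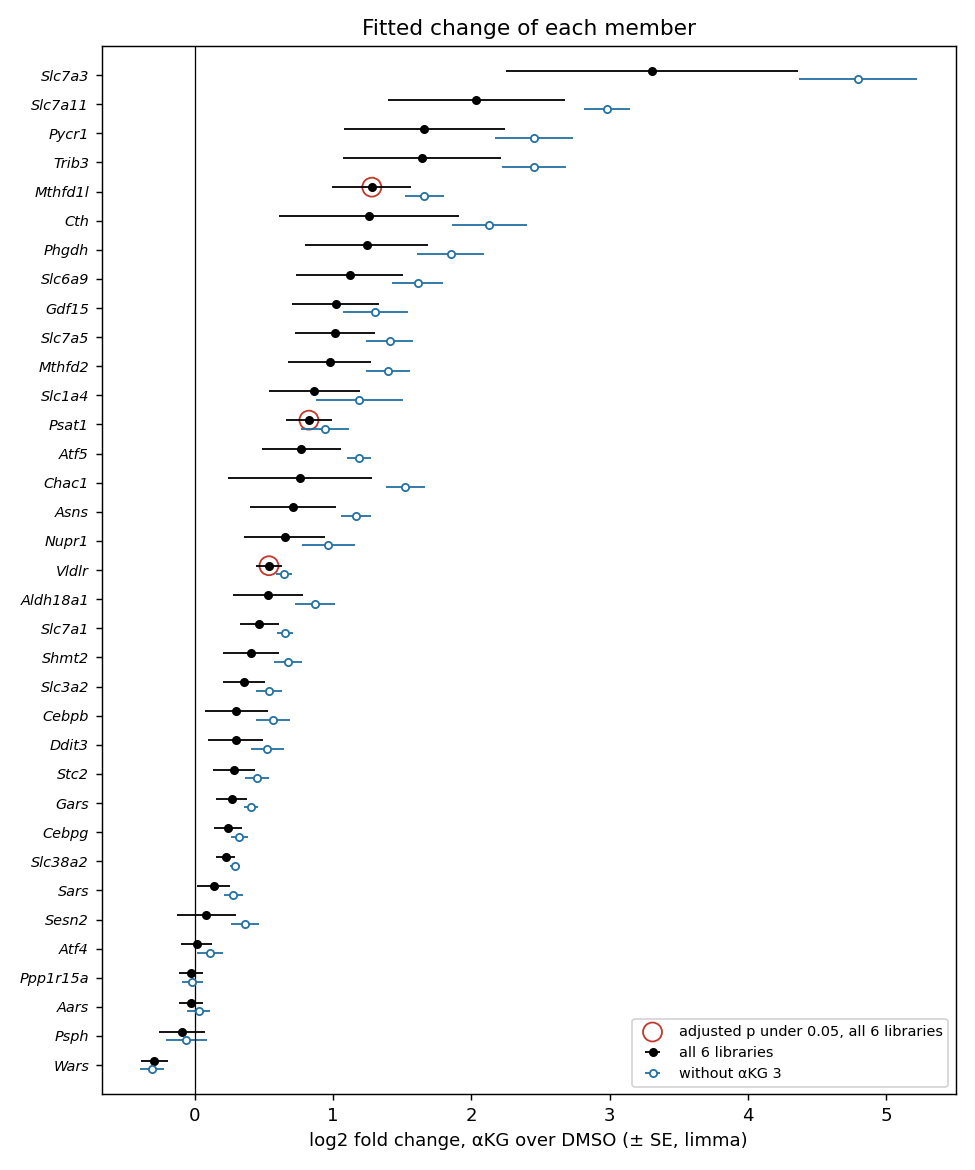
log2 fold change of αKG over DMSO (x axis, points with SE bars, limma) for the 35 genes (y axis, by size), with all 6 libraries (black) and without αKG 3 (blue, open). Red rings mark *Mthfd1l*, *Psat1* and *Vldlr*, called with all 6 libraries. The SE bars shrink without αKG 3 for most genes.

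Compared per length, the levels of the genes spanned a wide range. In normalized counts per kilobase of exon, the highest DMSO means were those of *Gars* (215), *Atf4* (188), *Slc38a2* (172) and *Vldlr* (141), and the lowest those of *Slc7a3* (0.176), *Slc7a11* (1.48) and *Cth* (2.15). In αKG 1 and αKG 2, *Slc7a11* reached 10.6 and 13.9 per kilobase and *Slc7a3* 11.4 in both, so that the genes with the largest ratios stayed far below *Atf4*, at 185 and 221 per kilobase. *Asns* changed in level from 84.1 per kilobase in DMSO to 177 and 201 in αKG 1 and αKG 2 and 72.8 in αKG 3. αKG 1 and αKG 2 were at least 2-fold above the DMSO mean in 15 and 16 of the 35 genes, and αKG 3 in 0. αKG 2 was above αKG 1 in 25 of the 35 (71.4%, against 46.9% of all genes), but among the 8 transporters in 2.

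Upstream of ATF4, none of 15 listed genes for eIF2 kinases, eIF2B subunits and core regulators was called (1 higher and 5 lower at an unadjusted p under 0.05 by limma, 0 called by limma-voom), and their median log2 fold change was -0.11. Of all genes, 2.83% were called higher and 0.952% lower, and 15.7% and 12.4% were so at an unadjusted p under 0.05. *Eif2ak4* (GCN2) had 205, 201 and 219 in DMSO and 273, 293 and 220 in αKG, and *Eif2ak3* (PERK) 196, 194 and 202 against 292, 264 and 192 (0.32 ± 0.12, adjusted p = 0.129, and 0.31 ± 0.15, adjusted p = 0.196). *Eif2ak1* (HRI) was lower in all 3 αKG libraries, with 581, 535 and 574 in DMSO and 433, 448 and 523 in αKG (-0.27 ± 0.09, adjusted p = 0.0988). *Eif2ak2* (PKR) had 573, 644 and 582 against 598, 610 and 639 (0.04 ± 0.08, adjusted p = 0.755). The 5 subunits of eIF2B, the exchange factor that phosphorylated eIF2 inhibits, all had fitted changes below 0, but none was called with all 6 libraries. *Eif2b1* to *Eif2b5* had log2 fold changes of -0.38 ± 0.16, -0.44 ± 0.19, -0.11 ± 0.13, -0.53 ± 0.13 and -0.32 ± 0.08. Their limma adjusted p was 0.157, 0.161, 0.587, 0.0527 and 0.0512. Of 17 alternative settings, not counting the unadjusted p, they were called in 1, 1, 0, 4 and 6. For *Eif2b1*, *Eif2b4* and *Eif2b5* all 3 αKG libraries were below every control, and for *Eif2b2* and *Eif2b3* αKG 3 was among the controls. Without αKG 3, 3 of the 15 were called higher and 6 lower, against 19.3% and 17.9% of all genes.

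A list of 14 other ATF4 target genes held 3 called higher and 1 called lower, where 2.83% of all genes were called higher and 0.952% lower. *Pck2*, the mitochondrial PEP carboxykinase, had 129, 132 and 106 in DMSO and 369, 337 and 168 in αKG (1.17 ± 0.26, adjusted p = 0.0436). *Fam129a*, a stress-responsive translation modulator, had 390, 376 and 369 against 689, 723 and 475 (0.71 ± 0.14, adjusted p = 0.0362), and *Aldh1l2*, a mitochondrial folate dehydrogenase, 636, 533 and 540 against 994, 974 and 698 (0.63 ± 0.13, adjusted p = 0.0416). In these 3 genes αKG 3 was intermediate, above every control and below αKG 1 and αKG 2. *Rit1*, a Ras-related GTPase, was lower in all 3 αKG libraries, with 557, 564 and 560 in DMSO and 292, 328 and 450 in αKG (-0.67 ± 0.14, adjusted p = 0.0379). The median of the 14 was 0.13. limma-voom called 0 of the 14 higher and 1 (*Rit1*) lower. Without αKG 3 limma called 6 higher and 1 lower, against 19.3% and 17.9% of all genes.

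Of 16 other amino acid transporters, 3 were called higher and 0 lower, against 2.83% and 0.952% of all genes. *Slc38a4*, a sodium-coupled neutral transporter, was at 193, 219 and 169 in DMSO and at 501, 585 and 425 in αKG, so that here αKG 3 was 2.19-fold above the DMSO mean (1.37 ± 0.14, adjusted p = 0.00295). *Slc7a2*, a cationic transporter related to *Slc7a3*, had 159, 148 and 157 against 259, 251 and 210 (0.63 ± 0.11, adjusted p = 0.0293). *Slc38a1*, which carries glutamine, had 1151, 1183 and 1121 against 1448, 1453 and 1299 (0.28 ± 0.07, adjusted p = 0.0480). The median of the 16 was 0.27, against 0.94 for the 8 transporters among the 35 genes. limma-voom called 2 of the 16 higher (*Slc38a4* and *Slc7a2*). Without αKG 3 limma called 7 higher and 1 lower, against 19.3% and 17.9% of all genes. Of the 7 genes called in these related lists, 1 (*Slc38a4*) was called without DMSO 1 and 0 without DMSO 2, DMSO 3, αKG 1 or αKG 2.

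With all 6 libraries, limma called 2.83% of all genes higher and 0.952% lower, and limma-voom 1.22% and 0.468%. At an unadjusted p under 0.05 by limma, 15.7% were higher and 12.4% lower. In lists of 8 to 18 genes, 0 calls are near such shares of called genes. Neighbouring pathways held no called gene by limma or by limma-voom with all 6 libraries. This applied to 16 other cytosolic tRNA synthetases (2 higher and 1 lower at an unadjusted p under 0.05; median 0.02), 17 mitochondrial ones (1 and 3; -0.11), 18 other one-carbon and glycine enzymes (2 and 1; 0.02), 13 other proline, glutamate and aminotransferase genes (0 and 2; -0.05), 18 ER chaperones and genes of the XBP1 and ATF6 arms (1 and 0; 0.03), and 8 mitochondrial chaperones and proteases (0 and 1; -0.01). *Hspa5*, the ER chaperone BiP, had 1209, 1177 and 1210 in DMSO and 1245, 1254 and 1129 in αKG (0.01 ± 0.06, adjusted p = 0.922). Without αKG 3, each of these lists held called genes: 6 higher and 0 lower among the cytosolic tRNA synthetases, 2 and 5 among the mitochondrial ones, 1 and 2 among the one-carbon and glycine enzymes, 1 and 3 among the proline, glutamate and aminotransferase genes, 5 and 1 among the ER genes, and 2 and 2 among the mitochondrial chaperones and proteases. Of all genes, 19.3% were called higher and 17.9% lower in that setting.

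**Figure D4:**
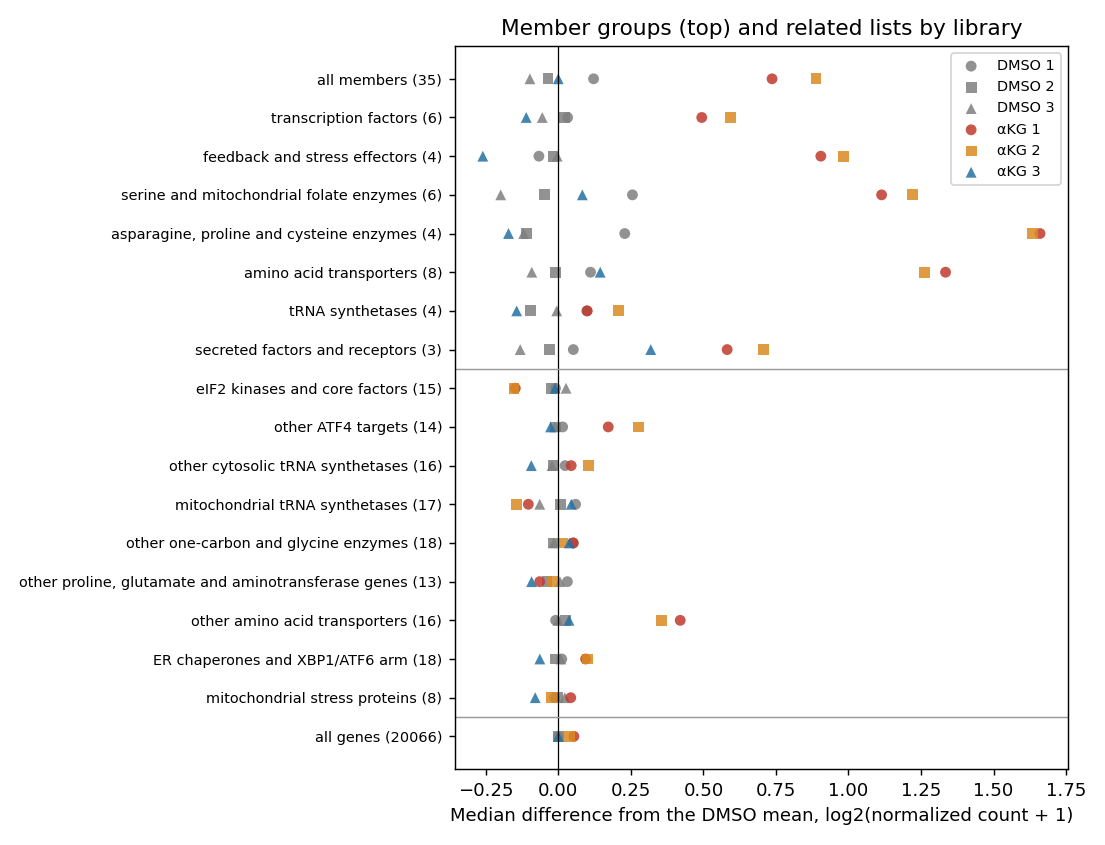
Median difference from the DMSO mean on the log2(normalized count + 1) scale (x axis) in each library, for the 35 genes and their role groups (top), the related lists (middle) and all 20066 genes (bottom), with the number of listed genes in brackets. For the 35 genes αKG 1 and αKG 2 stand at 0.74 and 0.89 and αKG 3 at -0.0003, and for all genes the medians of αKG 1 to 3 are 0.0536, 0.0394 and 0.

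Markers of cell types also differed between the libraries. In bulk RNA, fewer cells of a type and less RNA per cell cannot be told apart. The 10 fibroblast markers added up to 3363 to 3578 in DMSO and to 7447, 7291 and 3409 in αKG 1 to 3, and the 10 epicardial markers to 483 to 519 and to 1279, 1238 and 456. In both sums αKG 1 and αKG 2 thus exceeded all controls and αKG 3 did not, as in 23 of the 35 genes. In each list 0 of 10 markers were called (medians 0.43 and 1.24). Over all genes, 2.83% were called higher and 0.952% lower with all 6 libraries, which is the background for the calls given here for 6 libraries. The 10 cardiomyocyte markers added up to 75449 to 78165 in DMSO and to 108317, 111516 and 80049 in αKG (0 of 10 called, median 0.07), so the labelled cell type was present in all 6 libraries. The sum of the 10 endothelial markers was lower in all 3 αKG libraries, at 2242 to 2343 in DMSO and 1682, 1561 and 1554 in αKG, with 7 of 10 called lower (median -0.79), and the 10 mural markers stood at 4306 to 4415 and at 5027, 4613 and 4707 (2 called higher, median 0.17). Of 10 macrophage markers 4 were listed, adding up to 22 to 35 in DMSO and 24 to 41 in αKG (0 called, median -0.14). One marker each of 4 lists was at 0 in some library: *Cldn5* (endothelial), *Muc16* (epicardial), *Kcnj8* (mural) and *Csf1r* (macrophage). Without αKG 3, limma called 8 fibroblast and 10 epicardial markers higher and 0 lower, 4 cardiomyocyte markers higher and 2 lower, 2 endothelial markers higher and 7 lower, 4 mural markers higher and 1 lower, and 0 macrophage markers. The shares over all genes were then 19.3% higher and 17.9% lower. limma-voom called 4 endothelial markers lower and 0 mural markers, against 0.468% of all genes lower and 1.22% higher. Without any one of DMSO 1, DMSO 2, DMSO 3, αKG 1 and αKG 2, 0 endothelial and 0 mural markers were called by limma, while 7 endothelial markers were lower at an unadjusted p under 0.05 in each case. In these settings 1257 to 1563 of all 20066 genes were lower at an unadjusted p under 0.05. The part of these cell types in the differences of the 35 genes was not tested.

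**Figure D5:**
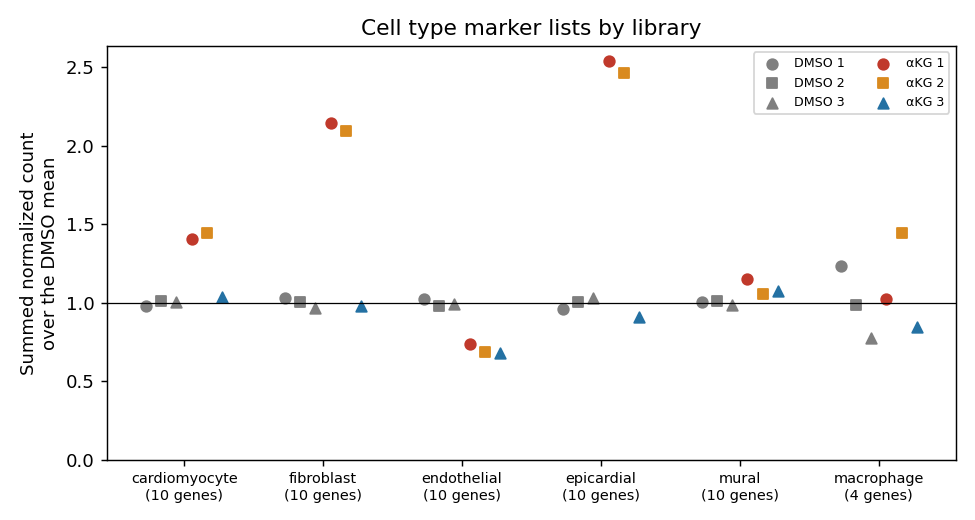
Summed normalized counts of each cell type marker list divided by the mean of the 3 DMSO libraries (y axis, from 0), for every library, with the number of listed genes under each name (x axis). Fibroblast, epicardial and cardiomyocyte sums are high in αKG 1 and αKG 2 and near the control level in αKG 3, while endothelial sums are below the controls in all 3 αKG libraries.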

How the data were processed

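RNA of 6 libraries of neonatal mouse cardiomyocytes was sequenced, 3 per group. Per the study's methods and the submitters' processing notes, the authors trimmed reads (Trimmomatic 0.39), aligned them (STAR 2.7.10a) to mm10 (GRCm38), counted reads per gene (featureCounts 2.0.3) and normalized them with DESeq2 1.30.1. The deposited values are treated as a score, because the authors had scaled the counts by library size factors and rounded them, and limma was therefore used and not a count test. Every listed gene reached 2 or more in 1 library or more, and no use of strand in counting was stated. The concentration follows the labels, and the study's methods give another.

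All 6 libraries entered limma 3.58.1 (R 4.3.3) on log2(value + 1), with a variance trend, treatment as the only term, no filter and Benjamini-Hochberg adjustment over 20066 genes. The pseudocount of 1 understates changes of low genes. Tested on simulated data, the fit called 182 of 200 changed genes and 0 unchanged ones. The simulation took its spread from the DMSO libraries, changed no low genes and gave every αKG library the same change. It held no library that stood apart like αKG 3, so these numbers do not carry over to the real libraries. The value of 1 read was estimated from the spacing of low values (20 of 20 simulated factors recovered within 0.2%). Gene positions were identical in GENCODE M21 for 98.95% of genes, which gave exon lengths and GC content. Python 3.11.15, scipy 1.17.1 and matplotlib 3.10.9 were used for exact intervals and plots. All 36 genes are named, with the eIF2 kinases and up to 3 called genes of each related list; *Pck2* (the fourth by p in its list), *Hspa5*, *Eif2b1* to *Eif2b5* and the markers at 0 were added after their values were seen. The genes and lists were chosen with earlier results of these data known. Alternatives were another filter, pseudocount, scaling, variance model, limma-voom on estimated reads, a replicate block, a GC and length correction, averaging DMSO 2 and DMSO 3, and leaving out each library.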

Additional observations from a re-analysis of the deposited data

How the results depend on the processing

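The calls rested on the setting far more than the direction. The median log2 fold change of the 35 genes stayed positive under every alternative, from 0.38 to 0.87, the extremes being without αKG 2 and without αKG 3. Among the 35 genes, the number called higher (3 with all libraries) was 0 by limma without a mean trend, 1 by limma-voom, 0 with a replicate block, 14 with a GC and length correction and a replicate block, 20 at an unadjusted p under 0.05, and 0 with DMSO 2 and DMSO 3 averaged. Where it was 0, 8, 22 and 10 of the 35 were higher at an unadjusted p under 0.05, in that order. Leaving out 1 library gave 0 to 30. It was 0 without any one of DMSO 1, DMSO 2, DMSO 3, αKG 1 and αKG 2, where 14, 9, 9, 4 and 4 were higher at an unadjusted p under 0.05, and 30 without αKG 3. The number called lower was 1 at an unadjusted p and 0 to 1 with 1 library left out. Over all genes the number called (759) was 27, 338, 46, 2311, 5648 and 19 under the first 6 alternatives, and 0 to 7466 with 1 library left out. It was 152, 3 and 4 without DMSO 1, 2 and 3, 0 without αKG 1 or αKG 2 (3324 and 3244 at an unadjusted p under 0.05) and 7466 without αKG 3. Of the related lists, 7 genes were called, and 0, 3, 1, 13, 34 and 1 under the same 6 alternatives and 0 to 54 with 1 library left out. The GC and length correction changed the split over all genes from 568 higher and 191 lower to 387 and 525 and moved the median of all genes to -0.11. Small changes turned sign: *Atf4* was at -0.0114 with libraries scaled to the same total, -0.0187 by limma-voom, -0.0175 with DMSO averaged, and -0.0754 under the GC and length correction with or without the block (-0.0986 to 0.11 with 1 library left out). *Ppp1r15a* was at 0.0114 under quantile normalization (-0.0793 to 0.0224 with 1 left out) and *Eif2ak2* at -0.15 under the GC and length correction with or without the block. *Sesn2* (-0.0691 to 0.37), *Psph* (-0.18 to 0.0145) and *Aars* (-0.0806 to 0.0539) changed sign with 1 library left out. Of 810 values (45 genes under 18 alternatives) 653 kept direction and call, 79 lost the call, 62 gained one and 16 turned sign. The causes were not tested. Leaving out or averaging libraries also lowers the number of samples. Deviations of same-numbered libraries from their group means correlated at -0.07, 0.14 and 0.002 over 13409 genes, and αKG 1, 2 and 3 correlated best with DMSO 2, 2 and 1. Because αKG 3 stood apart from its group, these correlations cannot show whether the replicate numbers pair the libraries. With 3726069 to 4427587 estimated reads, genes with few reads such as *Slc7a3* and *Cth* carry wide counting error.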
